A study of Homo sapiens with 9 samples.

Results

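The extracellular matrix that melanoma cells lay down holds, besides collagens and laminins, a set of secreted glycoproteins and proteoglycans, and 44 genes of this set are described here. They were taken by symbol from a list of matrix glycoproteins, secreted proteoglycans, syndecans and glypicans, chosen with earlier results of these data known. All 44 had a row among the 22605 features of the count table. RNA was sequenced from A375, a long-established line of human melanoma cells, after 48 h with Salvianolic acid B (SalB), a polyphenol of the medicinal plant Salvia miltiorrhiza. The groups were untreated control cells, cells given SalB at 100 µM and cells given SalB at 200 µM, with 3 libraries each, which the series describes as biological replicates. All cells were grown in the same serum-containing medium, and the labels give no vehicle and no time in culture for the control. A375 is 1 cell line, and the labels name no other cells in the cultures.

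Matrix glycoproteins such as fibronectin are secreted, bind integrins and are assembled outside the cell into fibrils that carry adhesion signals. Proteoglycans carry glycosaminoglycan chains on a core protein. The secreted ones space out collagen fibrils or bind hyaluronan, and the membrane-bound syndecans and glypicans hold growth factors at the cell surface and assist their receptors. In melanoma several of these genes, among them SPARC, TNC and CSPG4, are known for high expression and for a part in invasion.

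Total counts were 29658753 to 30063195 in control, 29996059 to 30629685 at 100 µM and 27348621 to 28468350 at 200 µM. Levels are given as CPM, read counts over the library size scaled by TMM. A gene is called higher or lower where the quasi-likelihood test of edgeR gave a Benjamini-Hochberg adjusted p under 0.05 over all 13968 genes tested, and errors on log2 fold changes are standard errors (SE). The spread of each gene was estimated over all 9 libraries. The SE and p of a comparison of 2 groups thus also depend on the replicates of the group not compared. Replicate 3 at 200 µM was unlike replicates 1 and 2: mitochondrially encoded mRNAs took 4.69% of its counts, against 1.81% to 1.85% of theirs, and 200 µM results are given with and without it. GC-rich genes also stood higher relative to GC-poor ones in some libraries. Bias in reading and a response to the dose cannot be told apart in this tilt at 100 µM, where all libraries carry it. A correction for GC may thus also take out part of a dose effect. Genes in the top octile of GC content stood above those in the bottom octile, relative to the control mean, by -0.16 to 0.18 on the log2 scale in control libraries, by 0.71 to 0.98 at 100 µM, and by 0.56, 1.03 and -0.29 in replicates 1, 2 and 3 at 200 µM. The melanoma label was met by SOX10, a lineage transcription factor, at 341 ± 18.8 CPM in control, whereas the pigment genes PMEL, MLANA, TYR and DCT did not pass 1.31 CPM in any library.

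At 100 µM most of the matrix genes were higher than in untreated cells, and at 200 µM fewer were. Among the larger rises at 100 µM against control were those of the fibulin gene EFEMP1 (28.8-fold), the proteoglycans VCAN (7.49-fold), HSPG2 (4.63-fold) and BGN (4.24-fold) and tenascin-C (TNC, 3.17-fold), while the syndecan SDC4 and the thrombospondin THBS2 fell. Of the 42 members that passed the filter on low counts, 29 rose and 6 fell at 100 µM. That is 69.0% and 14.3% of them, where 18.9% of all genes tested were called higher, 18.2% lower and 37.1% in either direction. As the members were chosen with earlier results of these data known, this contrast was not tested. Mitochondrially encoded mRNAs, whose part in this result was not tested, took 2.83% to 3.11% of counts at 100 µM, against 2.09% to 2.29% in control. The median log2 fold change of the 42 members at 100 µM was 0.87, beside -0.01 over all genes tested, and 22 of the 35 called members changed by at least 1 on the log2 scale. After the GC trend of each library was removed, 26 members were called higher and 7 lower, with a median of 0.61, and of all genes 39.0% were called, 21.1% higher and 17.9% lower. In RNA from a whole culture, fewer expressing cells and less RNA per cell cannot be told apart. The 2 members that did not pass the filter were FBLN2, with at most 4 counts in a library, and FBN2, whose counts of 42, 5 and 51 came from 100 µM replicate 3 and 200 µM replicates 1 and 2 and were 0 elsewhere.

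At 200 µM OLFML2A (5.61-fold), fibronectin (FN1, 3.72-fold), TGFBI (2.95-fold), OLFML3 (2.79-fold) and the glypican GPC1 (2.41-fold) were higher than in control. SDC2 (3.0-fold) and THBS2 (3.75-fold) were lower. In all 14 members rose and 6 fell against control. These are 33.3% and 14.3% of the 42 members, where 19.8% of all genes were called higher, 17.5% lower and 37.3% in either direction, and the members' median log2 fold change was 0.26, beside 0.00252 over all genes. Without 200 µM replicate 3, 18 rose and 7 fell of the 43 members then tested (FBN2 passed the filter in that fit), and the median of the same 42 members was 0.31. In that fit 53.8% of all genes were called, 27.9% higher and 25.9% lower. Between the doses, 7 members were higher at 200 µM than at 100 µM and 23 were lower. Those are 16.7% and 54.8% of the members, where 22.4% of all genes were called higher, 21.9% lower and 44.4% in either direction. The median difference between doses was -0.71, and without replicate 3 it was -0.69 over the same 42 members, with 8 of 43 members higher and 29 lower, where 54.2% of all genes were called, 25.8% higher and 28.3% lower. The comparisons of the 2 doses with control share the same 3 control libraries.

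**Figure D1:**
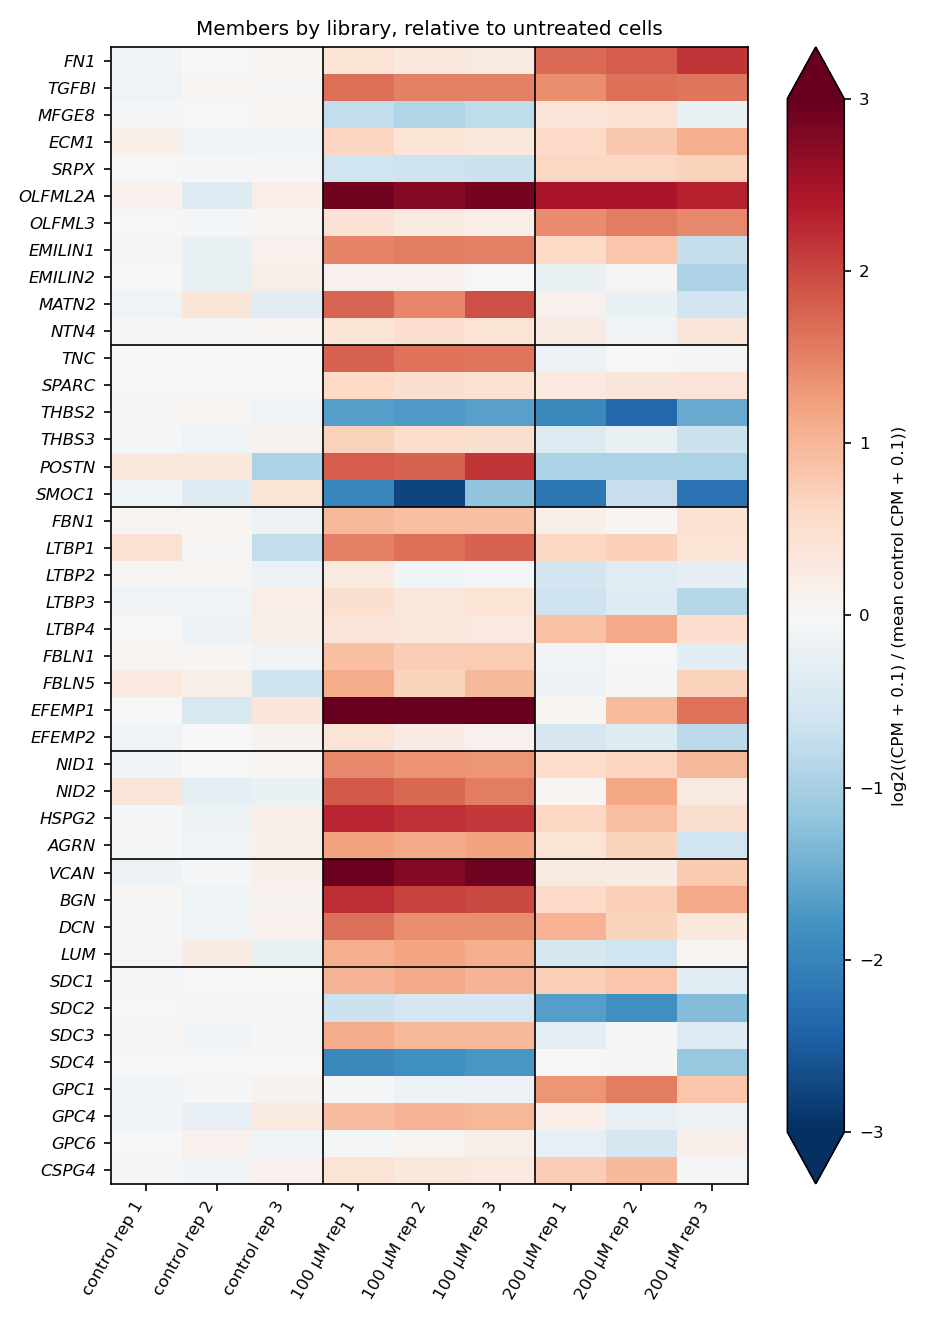
Each cell shows the log2 ratio of a member's CPM in 1 library to the mean of the control libraries, with 0.1 CPM added to both; rows are the 42 members that passed the filter, grouped by role, and columns are the 9 libraries. The 3 libraries at 100 µM are mostly red and alike, whereas 200 µM replicate 3 parts from replicates 1 and 2 in rows such as EMILIN1, AGRN, SDC1 and SDC4.

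Library by library, 200 µM replicate 3 was set against the mean of replicates 1 and 2. It lay below 0.667 of that mean in 10 of the 41 tested members with counts there, and above 1.5 times it in 4. The 10 low ones were MFGE8, EMILIN1, EMILIN2, MATN2, SMOC1, AGRN, SDC1, SDC4, GPC1 and CSPG4, and the 4 high ones were THBS2, FBLN5, EFEMP1 and LUM. Among these 41 the lowest ratio was 0.372 (EMILIN1) and the highest was 2.54 (EFEMP1). Leaving this library out kept the call of 35 of 42 members at 200 µM against control, added 6 (MFGE8, EMILIN1, AGRN, LUM, SDC1 and GPC6) and ended 1 (SMOC1). At 100 µM against control, where this library enters through the shared fit, leaving it out added 3 (LTBP4, EFEMP2 and CSPG4) and ended 0. The SE in that comparison was 0.31 with it and 0.090 without it for EMILIN1, and 0.26 and 0.056 for SDC4. For SDC1 the SE was 0.25 and 0.070, and for AGRN 0.26 and 0.089. Between the doses leaving it out kept the call of 33 of 42 members, added 8 (NTN4, SPARC, THBS2, LTBP2, FBLN5, SDC1, GPC6 and CSPG4) and ended 1 (OLFML2A). Calls over all genes rose as well without this library. The share called went from 37.3% to 53.8% at 200 µM against control, from 37.1% to 56.1% at 100 µM against control and from 44.4% to 54.2% between doses.

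TNC, SDC4 and FN1 took 3 different courses over dose, and their promoters are printed for that reason. TNC encodes tenascin-C, a large adhesion-modulating glycoprotein of wounds and invasive tumours (ENSG00000041982, chromosome 9, 115019578 to 115118257, minus strand; positions here and below are from GENCODE v29 on GRCh38). TNC was measured at 369.7, 373 and 381 CPM in control, 1273, 1157 and 1134 CPM at 100 µM, and 332, 371 and 363 CPM at 200 µM. All libraries at 100 µM lay above the rest, and those at 200 µM overlapped control. TNC was 3.17-fold higher at 100 µM than in control (log2 fold change 1.67 ± 0.075 (SE), adjusted p = 2.04e-06), and its difference at 200 µM against control was -0.077 ± 0.073 (SE, adjusted p = 0.444; -0.078 without replicate 3).

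SDC4 encodes syndecan-4, a heparan sulphate proteoglycan of focal adhesions that binds fibronectin together with integrins (ENSG00000124145, chromosome 20, 45325288 to 45348424, minus strand). Its levels were 344, 347 and 348 CPM in control, 89.9, 96.8 and 103 CPM at 100 µM, and 350.2, 356 and 159 CPM at 200 µM. Every library at 100 µM lay below all the others, and at 200 µM replicates 1 and 2 were slightly above control whereas replicate 3 was below it. SDC4 was 3.59-fold lower at 100 µM than in control (log2 fold change -1.84 ± 0.26 (SE), adjusted p = 7.49e-04). Its log2 difference at 200 µM against control was -0.26 ± 0.25 with all libraries and 0.042 without replicate 3, with no call either way (adjusted p = 0.443 and 0.582).

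FN1 encodes fibronectin itself (ENSG00000115414, chromosome 2, 215360440 to 215436172, minus strand). Libraries held 195, 209 and 213 CPM in control, 275, 255 and 249 CPM at 100 µM, and 665, 723 and 909 CPM at 200 µM. The 200 µM libraries were the highest and replicate 3 was the highest of them. FN1 was 3.72-fold higher at 200 µM than in control (log2 fold change 1.9 ± 0.12 (SE), adjusted p = 7.05e-06; log2 fold change 1.77 without replicate 3) and 2.95-fold higher at 200 µM than at 100 µM (log2 fold change 1.56 ± 0.12 (SE), adjusted p = 1.08e-05; 1.41 without replicate 3). At 100 µM it was 1.26-fold higher than in control (log2 fold change 0.34 ± 0.11 (SE), adjusted p = 0.0438), a call that ended when any 1 of the 6 libraries of these groups was left out (adjusted p 0.0623 to 0.143). The log2 fold change in those refits was 0.29 to 0.38. With 200 µM replicate 3 left out of the fit the call at 100 µM stood (0.36, adjusted p = 4.17e-04).

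The promoters of these 3 genes are given from RefSeq (GRCh38.p14), each 250 bases before to 50 bases after the start of transcription, on the minus strand and written 5′ to 3′. Capitals mark matches, on either strand, to 5 short motifs searched by letters. The AP-1 motif was searched as TGANTCA, that of TEAD factors as GGAATG, the core promoter box bound by TBP as TATAAA, and the cyclic AMP response element (CRE) as TGACGTCA. The NF-kB motif was searched as 3 G, any 3 bases, 2 T and 2 C. TNC is at chr9:115118108-115118407, SDC4 at chr20:45348375-45348674 and FN1 at chr2:215436019-215436318.
TNC: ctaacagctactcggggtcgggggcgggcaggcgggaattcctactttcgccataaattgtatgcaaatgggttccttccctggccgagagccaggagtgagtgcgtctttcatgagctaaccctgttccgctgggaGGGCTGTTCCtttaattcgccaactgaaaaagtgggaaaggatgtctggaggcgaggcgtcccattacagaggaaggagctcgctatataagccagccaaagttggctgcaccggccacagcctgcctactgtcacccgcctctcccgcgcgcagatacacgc
SDC4: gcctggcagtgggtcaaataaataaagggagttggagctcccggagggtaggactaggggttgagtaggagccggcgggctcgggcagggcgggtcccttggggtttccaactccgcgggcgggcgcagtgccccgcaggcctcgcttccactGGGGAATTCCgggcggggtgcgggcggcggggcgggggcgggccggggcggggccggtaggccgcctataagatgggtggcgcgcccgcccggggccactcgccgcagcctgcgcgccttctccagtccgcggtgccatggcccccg
FN1: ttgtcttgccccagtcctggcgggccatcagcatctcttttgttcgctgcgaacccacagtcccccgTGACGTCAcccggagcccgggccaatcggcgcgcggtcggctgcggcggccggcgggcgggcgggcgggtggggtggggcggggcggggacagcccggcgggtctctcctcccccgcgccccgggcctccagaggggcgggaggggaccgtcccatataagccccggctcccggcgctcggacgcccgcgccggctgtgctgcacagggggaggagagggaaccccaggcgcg

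TNC had 1 NF-kB match, GGGCTGTTCC, 113 bases before the start, SDC4 had 1, GGGGAATTCC, 97 bases before it, and FN1 had 1 CRE match, 183 bases before it. None of these 3 matches overlapped another searched motif. GC boxes (GGGCGG, not capitalised) numbered 1 in TNC, 8 in SDC4 and 6 in FN1. The NF-kB letters stood in 14.6% of the 48 promoters found for 37 members, and in 6.52% of all 35116 promoters of the table. TGACGTCA stood in 4.17% of the members' promoters and 1.85% of all, TGANTCA in 6.25% and 7.71%, GGAATG in 20.8% and 14.0%, TATAAA in 12.5% and 11.5%, and GGGCGG in 77.1% and 45.0%. The members' promoters had a median GC content of 68.8%, against 58.7% for all. A match of letters describes the sequence and shows no binding.

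**Figure D2:**
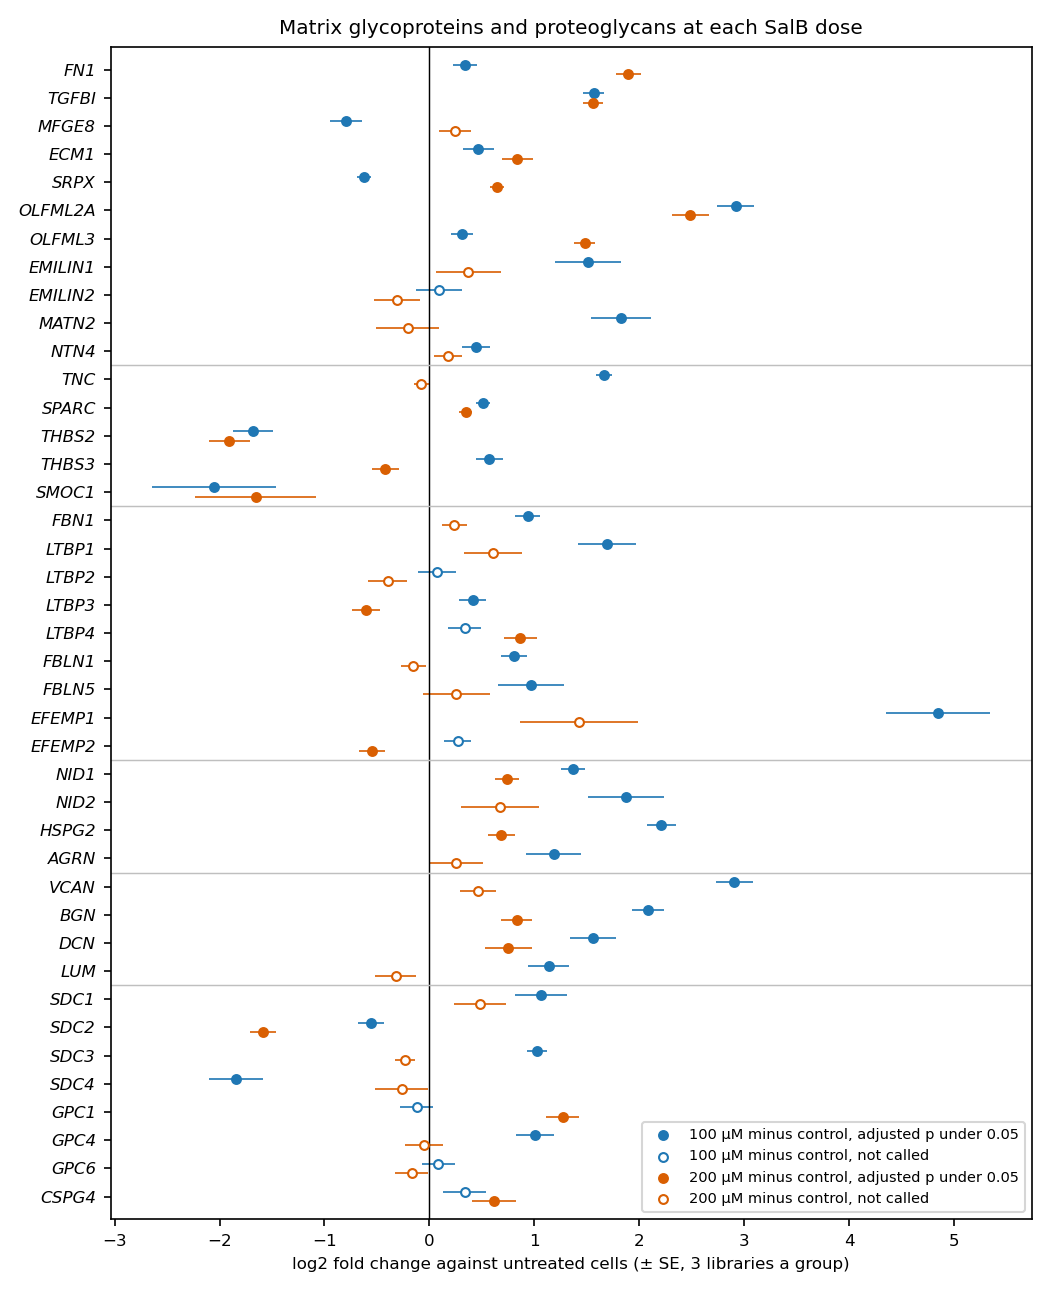
Log2 fold change (± SE) of each member at 100 µM (blue) and 200 µM (orange) against untreated cells, with 3 libraries a group; filled points passed an adjusted p of 0.05, and grey lines part the role groups. Of the 42 members tested 41 are drawn; POSTN is left out because its 200 µM libraries held no count.

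Structural and adhesive glycoproteins form the first role group, and it holds 6 of the 14 members that rose at 200 µM against control. Of 11 tested, 8 rose and 2 fell at 100 µM, and 6 rose and none fell at 200 µM, both against control. Between doses 4 were higher at 200 µM than at 100 µM and 3 were lower. The counts of this and the other role groups stand beside 37.1% of all genes called at 100 µM against control. At 200 µM against control that share was 37.3%, and between doses 44.4%. TGFBI, a secreted integrin-binding protein first found as a TGF-beta-induced gene, had 28.9, 32.5 and 31.7 CPM in control, 97.7, 89.3 and 88.7 CPM at 100 µM, and 81.4, 98.4 and 94.8 CPM at 200 µM. Both doses lay far above control and overlapped each other. It was 2.96-fold higher at 100 µM than in control (log2 fold change 1.57 ± 0.098 (SE), adjusted p = 1.09e-05) and 2.95-fold higher at 200 µM (log2 fold change 1.56 ± 0.098 (SE), adjusted p = 7.89e-06), and without 200 µM replicate 3 the higher dose gave 1.55. The log2 difference between doses was -0.0053 ± 0.095 (SE), which was not called (adjusted p = 0.969; -0.039 without replicate 3).

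OLFML2A and OLFML3 encode secreted proteins with an olfactomedin domain, and their course over dose differed. OLFML2A stood at 1.42, 0.964 and 1.49 CPM in control, 10.2, 9.08 and 10.1 CPM at 100 µM, and 7.43, 7.51 and 6.83 CPM at 200 µM. Both doses lay above control without overlap. It was 7.56-fold higher at 100 µM (log2 fold change 2.92 ± 0.17 (SE), adjusted p = 8.55e-06) and 5.61-fold higher at 200 µM (log2 fold change 2.49 ± 0.17 (SE), adjusted p = 1.30e-05; 2.54 without replicate 3), both against control. The 200 µM level was lower than the 100 µM level by a call near the threshold (log2 fold change -0.43, adjusted p = 0.0481), and without replicate 3 it was not called (adjusted p = 0.0627). That call also ended without any 1 of the other libraries except control replicate 2 (adjusted p 0.0526 to 0.128). OLFML3 stood at 8.14, 7.75 and 8.27 CPM in control, 10.9, 9.86 and 9.27 CPM at 100 µM, and 21.6, 23.6 and 22.2 CPM at 200 µM. The 200 µM libraries were all above the 100 µM libraries, and these were all above control. OLFML3 was 2.79-fold higher at 200 µM than in control (log2 fold change 1.48 ± 0.10 (SE), adjusted p = 1.29e-05; 1.5 without replicate 3). At 100 µM its log2 fold change was 0.31 ± 0.10 (SE, adjusted p = 0.0385), and 0.17 with no call after GC correction (adjusted p = 0.134). It was also not called at 100 µM without any 1 of the control libraries or 100 µM replicate 1 or 2 (adjusted p 0.0793 to 0.141). The call at 100 µM stood without 200 µM replicate 3 (0.33, adjusted p = 0.013).

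EMILIN1, a glycoprotein at the elastin surface that restrains the processing of TGF-beta precursors, had 55.5, 47.4 and 59 CPM in control, 151, 156 and 154 CPM at 100 µM, and 81.1, 95.5 and 32.9 CPM at 200 µM. At 100 µM the libraries were close together and highest, and at 200 µM replicate 3 was below control while replicates 1 and 2 were above it. It was 2.85-fold higher at 100 µM than in control (log2 fold change 1.51 ± 0.31 (SE), adjusted p = 0.00545), and the fit without 200 µM replicate 3 gave 1.53 ± 0.090 there. At 200 µM its log2 fold change was 0.37 ± 0.31 (SE, adjusted p = 0.38) with all libraries and 0.72 (adjusted p = 1.44e-04) without replicate 3. MATN2, a matrilin that links other matrix proteins, had 0.797, 1.17 and 0.675 CPM in control, 3.18, 2.6 and 3.63 CPM at 100 µM, and 0.979, 0.748 and 0.556 CPM at 200 µM. Only the 100 µM libraries stood out. MATN2 was 3.55-fold higher at 100 µM than in control (log2 fold change 1.83 ± 0.28 (SE), adjusted p = 0.00131), with a log2 fold change of -0.21 ± 0.30 (SE) and no call at 200 µM (adjusted p = 0.625; -0.016 without replicate 3).

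The other 5 structural genes changed by less than 1 on the log2 scale against control. MFGE8, which bridges phosphatidylserine on dying cells to integrins on phagocytes, and the sushi-repeat gene SRPX fell at 100 µM (-0.80 ± 0.15 and -0.62 ± 0.066, adjusted p = 0.00347 and 1.63e-04). SRPX rose at 200 µM against control (0.65 ± 0.066, adjusted p = 1.11e-04; 0.63 without replicate 3). MFGE8 was called higher at 200 µM without replicate 3 (0.43, adjusted p = 2.28e-04), and with all libraries it had 0.24 ± 0.15 (adjusted p = 0.232). ECM1, a secreted glycoprotein of skin matrix, rose at both doses (0.47 ± 0.15 at 100 µM, adjusted p = 0.0368, and 0.84 ± 0.15 at 200 µM, adjusted p = 0.00239; 0.72 without replicate 3). Its call at 100 µM ended after GC correction (0.24, adjusted p = 0.339), and without control replicate 2 or 3 or 100 µM replicate 1 or 2 (adjusted p 0.0669 to 0.138). That call stood without 200 µM replicate 3 (0.49, adjusted p = 0.00388). NTN4, a netrin of basement membranes, rose at 100 µM by 0.45 ± 0.13 (adjusted p = 0.0287) and had 0.18 ± 0.14 at 200 µM (adjusted p = 0.335; 0.093 without replicate 3). The NTN4 call at 100 µM ended without any 1 of the 6 libraries compared (adjusted p 0.0567 to 0.0966), but stood without 200 µM replicate 3 (0.47, adjusted p = 0.00454). EMILIN2 was not called at either dose against control (0.09 ± 0.22 at 100 µM and -0.31 ± 0.22 at 200 µM, adjusted p = 0.778 and 0.311; -0.059 without replicate 3 at the higher dose), but it was called lower at 200 µM after GC correction (-0.42, adjusted p = 0.0442).

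Matricellular proteins modulate adhesion without being load-bearing parts of the matrix. Of 6 tested, 4 rose and 2 fell at 100 µM against control, and at 200 µM 1 rose and 3 fell. None was higher at 200 µM than at 100 µM, and 3 were lower. SPARC, a collagen-binding glycoprotein abundant in melanoma, was the most abundant member per kilobase in all 3 groups, and rose by 0.51 ± 0.065 at 100 µM (adjusted p = 4.47e-04) and by 0.35 ± 0.065 at 200 µM (adjusted p = 0.00295; 0.34 without replicate 3), both on the log2 scale against control. SPARC ranged over 1311, 1326 and 1309.7 CPM in control, 1986, 1846 and 1781 CPM at 100 µM and 1613, 1693 and 1709.5 CPM at 200 µM. All treated libraries were above all control libraries.

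THBS2, an antiangiogenic thrombospondin, had 21, 21.7 and 18.6 CPM in control, 6.42, 6.2 and 6.52 CPM at 100 µM, and 5.29, 3.92 and 7.15 CPM at 200 µM. Every treated library was below every control library. It was 3.2-fold lower at 100 µM (log2 fold change -1.68 ± 0.19 (SE), adjusted p = 2.44e-04) and 3.75-fold lower at 200 µM (log2 fold change -1.91 ± 0.19 (SE), adjusted p = 1.13e-04; -2.14 without replicate 3) than in control. THBS3, a thrombospondin of cartilage and bone, moved by 0.57 ± 0.13 at 100 µM (adjusted p = 0.00801) and by -0.42 ± 0.13 at 200 µM (adjusted p = 0.0306; -0.30 without replicate 3) against control. The call at 200 µM ended without any 1 control library, 100 µM replicate 2 or 3 or 200 µM replicate 1 (adjusted p 0.0524 to 0.106). Fitting 200 µM and control alone ended it as well (adjusted p = 0.079). Of the exon length of THBS3, 25.4% overlaps other annotated genes, so its reads may be shared.

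SMOC1, a secreted BMP antagonist, had 1.52, 1.24 and 2.23 CPM in control, 0.353, 0.162 and 0.681 CPM at 100 µM, and 0.29, 0.997 and 0.278 CPM at 200 µM. All treated libraries were below all control libraries, on counts of 5 to 28 a treated library. It was called 4.14-fold lower at 100 µM (log2 fold change -2.05 ± 0.59 (SE), adjusted p = 0.0236) and 3.15-fold lower at 200 µM (log2 fold change -1.66 ± 0.58 (SE), adjusted p = 0.0498) than in control. Without 200 µM replicate 3 the higher dose gave -1.35 and was not called (adjusted p = 0.0827), and leaving out control replicate 1 or 3 or 100 µM replicate 1 or 2 ended the call at 100 µM (adjusted p 0.0551 to 0.0854). The call at 100 µM stood without 200 µM replicate 3 (-2.03, adjusted p = 0.00955). The call at 200 µM also ended without any 1 control library, 100 µM replicate 1 or 200 µM replicate 1 (adjusted p 0.0746 to 0.154). Fitting 200 µM and control alone ended it as well (adjusted p = 0.0575). POSTN, the fasciclin-domain protein periostin, was close to the limit of detection, with 4, 4 and 0 counts in control, 18, 17 and 23 counts at 100 µM and 0 counts in all 3 libraries at 200 µM. It was called higher at 100 µM than in control (log2 fold change 2.71 ± 0.69 (SE), adjusted p = 0.020), a call that ended without control replicate 1 or 2 or any 1 of the 100 µM libraries (adjusted p 0.0519 to 0.0661). That call stood without 200 µM replicate 3 (adjusted p = 0.0069). At 200 µM POSTN was at least 5.60-fold lower than at 100 µM, taking a floor of 3 counts per library (adjusted p = 0.00267), and no fold can be given against control. Against control it was not called at 200 µM (adjusted p = 0.0669). It was called lower there by DESeq2 (adjusted p = 0.0315) and without control replicate 3 (adjusted p = 0.0154).

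**Figure D3:**
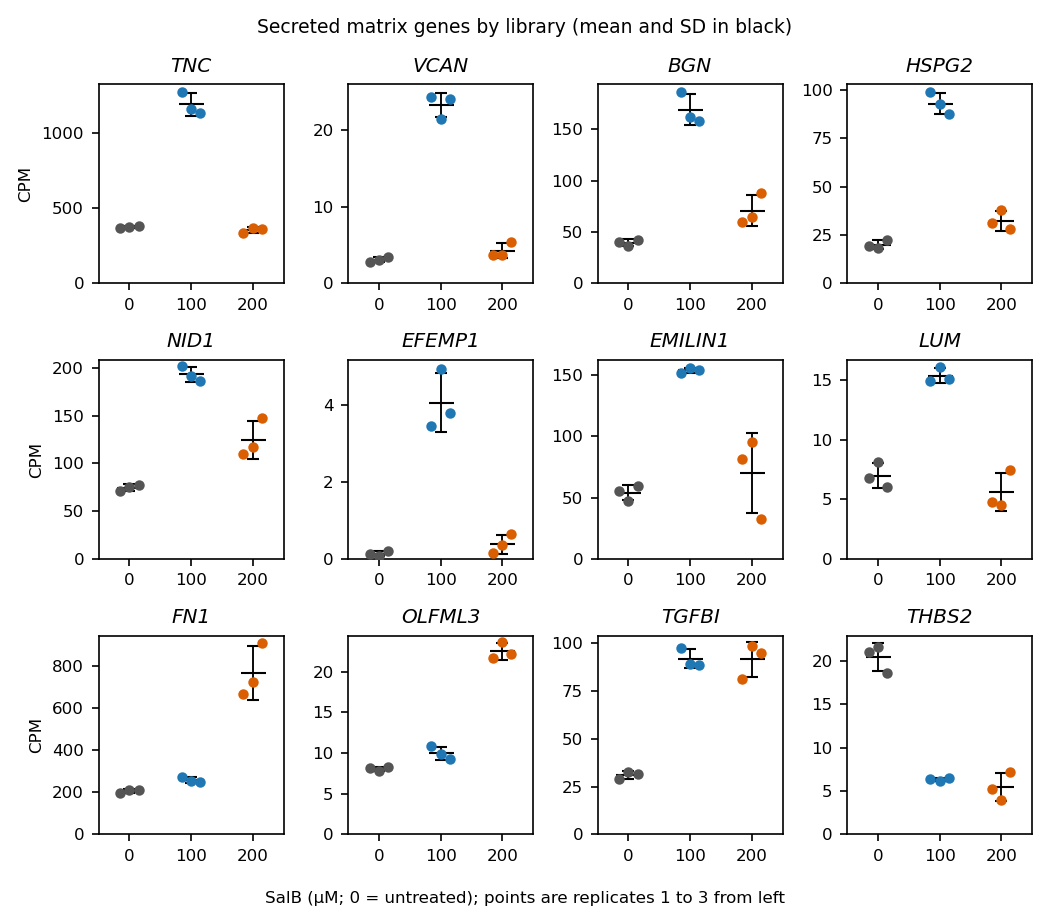
CPM of 12 secreted matrix genes in each library at 0, 100 and 200 µM SalB, with the mean and SD of 3 libraries in black; each vertical axis starts at 0. TNC, VCAN, BGN, HSPG2, EFEMP1 and EMILIN1 peak at 100 µM, FN1 and OLFML3 are highest at 200 µM, and THBS2 is low at both doses.

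Fibrillins build microfibrils, some of the latent TGF-beta binding proteins (LTBPs) tether the inactive cytokine to them, and fibulins help to attach elastin. Of 9 tested in this class, 6 rose and none fell at 100 µM against control. At 200 µM 1 rose and 2 fell against control, and 6 were lower and 1 higher than at 100 µM. The share called at 200 µM against control was 33.3%, beside 37.3% of all genes. EFEMP1, a fibulin, had 0.139, 0.0689 and 0.203 CPM in control, 3.47, 4.93 and 3.79 CPM at 100 µM, and 0.145, 0.356 and 0.635 CPM at 200 µM. Control libraries held 2 to 6 counts of it and 100 µM libraries 108 to 152. It was 28.8-fold higher at 100 µM than in control (log2 fold change 4.85 ± 0.50 (SE), adjusted p = 1.38e-04) and 10.7-fold lower at 200 µM than at 100 µM (log2 fold change -3.42 ± 0.44 (SE), adjusted p = 2.79e-04; -4.00 without replicate 3). Against control, the log2 fold change at 200 µM was 1.42 ± 0.56 (SE, adjusted p = 0.0754), and 0.87 without replicate 3, which was the highest of the 3; it was called without 200 µM replicate 1 (1.81, adjusted p = 0.0196) and by DESeq2 (1.46, adjusted p = 0.0448).

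LTBP1 had 2.53, 1.86 and 1.05 CPM in control, 5.33, 5.87 and 6.42 CPM at 100 µM, and 2.83, 3.03 and 2.42 CPM at 200 µM. All libraries at 100 µM lay above the rest, and some at 200 µM overlapped control. It was 3.24-fold higher at 100 µM than in control (log2 fold change 1.70 ± 0.28 (SE), adjusted p = 0.00167) and had 0.61 ± 0.28 (SE) with no call at 200 µM (adjusted p = 0.119; 0.71 without replicate 3), where it was called without control replicate 1 (0.92, adjusted p = 0.0352). LTBP3 and LTBP4 parted at the higher dose. LTBP3 averaged 119 ± 14.6 CPM in control, 159 ± 7.74 at 100 µM and 78.4 ± 12.7 at 200 µM, and fell by 0.60 at 200 µM against control (SE 0.13, adjusted p = 0.00602; -0.48 without replicate 3). LTBP4 averaged 39.7 ± 4.84 CPM in control, 50.1 ± 1.93 at 100 µM and 72.2 ± 15.8 at 200 µM, and rose by 0.86 ± 0.16 at 200 µM against control (adjusted p = 0.00257; 1.03 without replicate 3). As a share of the 4 LTBP genes' summed CPM per kilobase, LTBP4 made up 28.8% ± 1.05 in control, 27.2% ± 0.717 at 100 µM and 51.8% ± 1.87 at 200 µM, and LTBP3 made up 68.1% ± 1.57 in control, 67.9% ± 0.691 at 100 µM and 44.7% ± 1.38 at 200 µM (SD, n = 3 each). LTBP3 at 100 µM was called higher (0.41 ± 0.13, adjusted p = 0.0326), but not after GC correction (0.036, adjusted p = 0.754) or without control replicate 1 or 2 or any 1 of the 100 µM libraries (adjusted p 0.0616 to 0.12). This LTBP3 call stood without 200 µM replicate 3 (0.44, adjusted p = 0.00326). LTBP4 at 100 µM had 0.34 ± 0.16 (adjusted p = 0.122) and was called when 200 µM replicate 2 (adjusted p = 0.0418) or 3 (adjusted p = 0.011) was left out of the fit or these 2 groups were fitted alone (adjusted p = 0.00339). Its difference between doses (0.53 ± 0.16, adjusted p = 0.0225; 0.67 without 200 µM replicate 3) was not called without any 1 of the 100 µM libraries or 200 µM replicate 1 or 2 (adjusted p 0.0531 to 0.0853). LTBP2 was called at neither dose against control (0.07 ± 0.18 at 100 µM and -0.40 ± 0.18 at 200 µM, adjusted p = 0.787 and 0.119; -0.45 without replicate 3 at the higher dose).

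Among the others, FBN1, the main fibrillin of adult microfibrils, rose by 0.94 ± 0.12 at 100 µM (adjusted p = 4.02e-04) and had 0.24 ± 0.12 at 200 µM (adjusted p = 0.141; 0.13 without replicate 3). The fibulin FBLN1 rose by 0.81 ± 0.12 at 100 µM (adjusted p = 0.00106) and had -0.15 ± 0.12 at 200 µM (adjusted p = 0.36; -0.049 without replicate 3). FBLN5, which binds tropoelastin, rose by 0.97 ± 0.32 at 100 µM (adjusted p = 0.0381), a call that ended after GC correction (adjusted p = 0.0683) and without any 1 of the 6 libraries compared (adjusted p 0.0511 to 0.121). Its call at 100 µM stood without 200 µM replicate 3 (0.99, adjusted p = 0.00809). At 200 µM FBLN5 had 0.26 ± 0.32 (adjusted p = 0.568, and -0.039 without replicate 3). EFEMP2, a fibulin needed for elastin crosslinking in mice, was lower at 200 µM than in control (log2 fold change -0.55 ± 0.13, adjusted p = 0.00837; -0.43 without replicate 3) and was not called at 100 µM (0.27 ± 0.12, adjusted p = 0.122), except with 200 µM replicate 3 left out of the fit (0.29, adjusted p = 0.017) or these 2 groups fitted alone (0.28, adjusted p = 0.0128).

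All 4 basement membrane genes rose at 100 µM against control, and all 4 were lower at 200 µM than at 100 µM. HSPG2, the heparan sulphate proteoglycan perlecan, had 19.5, 18.1 and 22.7 CPM in control, 98.9, 92.6 and 87.6 CPM at 100 µM, and 31.1, 37.8 and 27.9 CPM at 200 µM. The groups did not overlap. It was 4.63-fold higher at 100 µM (log2 fold change 2.21 ± 0.13 (SE), adjusted p = 9.79e-06) and 1.61-fold higher at 200 µM (log2 fold change 0.69 ± 0.13 (SE), adjusted p = 0.00339; 0.79 without replicate 3) than in control. Overlap with other annotated genes covers 11.7% of its exon length. NID1, the nidogen that ties laminin to type IV collagen, had 71, 75.2 and 77.9 CPM in control, 202, 191 and 187 CPM at 100 µM, and 109.9, 117 and 147 CPM at 200 µM. These groups did not overlap either, and NID1 was 2.59-fold higher at 100 µM (log2 fold change 1.37 ± 0.11 (SE), adjusted p = 3.97e-05) and 1.67-fold higher at 200 µM (log2 fold change 0.74 ± 0.11 (SE), adjusted p = 8.96e-04; 0.62 without replicate 3) than in control.

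NID2, the other nidogen, was far scarcer, at 0.693, 0.413 and 0.439 CPM in control, 2.09, 1.91 and 1.69 CPM at 100 µM, and 0.544, 1.28 and 0.635 CPM at 200 µM. Libraries at 100 µM were the highest, and those at 200 µM overlapped control. NID2 was 3.66-fold higher at 100 µM than in control (log2 fold change 1.87 ± 0.36 (SE), adjusted p = 0.00382) and 2.3-fold lower at 200 µM than at 100 µM (log2 fold change -1.20 ± 0.35 (SE), adjusted p = 0.0203; -1.06 without replicate 3). The difference between doses was not called without 100 µM replicate 1 or 2 or 200 µM replicate 1 (adjusted p 0.0554 to 0.0674). Overlap with other annotated genes, RTRAF the most, covers 30.0% of the exon length of NID2. AGRN encodes agrin, the heparan sulphate proteoglycan that clusters acetylcholine receptors at the nerve-muscle junction, and had 52.8, 51 and 61.6 CPM in control, 127, 121 and 128 CPM at 100 µM, and 73.4, 87.7 and 36.6 CPM at 200 µM. The 100 µM libraries were the highest, and 200 µM replicate 3 alone was below control. AGRN was 2.27-fold higher at 100 µM than in control (log2 fold change 1.18 ± 0.26 (SE), adjusted p = 0.00701). With 200 µM it had 0.26 ± 0.26 against control (SE, adjusted p = 0.468) with all libraries and 0.56 (adjusted p = 7.55e-04) without replicate 3.

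The 4 secreted chondroitin or dermatan sulphate and leucine-rich proteoglycans likewise rose at 100 µM against control and were lower at 200 µM than at 100 µM, while 2 of them rose at 200 µM against control. VCAN, the large hyaluronan-binding proteoglycan versican, had 2.81, 3.03 and 3.48 CPM in control, 24.3, 21.5 and 24 CPM at 100 µM, and 3.73, 3.7 and 5.44 CPM at 200 µM. The 100 µM libraries held several times the level of any other library. VCAN was 7.49-fold higher at 100 µM than in control (log2 fold change 2.90 ± 0.18 (SE), adjusted p = 9.18e-06) and 5.43-fold lower at 200 µM than at 100 µM (log2 fold change -2.44 ± 0.17 (SE), adjusted p = 8.04e-06; -2.65 without replicate 3). Although its 200 µM libraries were all above control, its log2 fold change there was 0.46 ± 0.17 (SE) and was not called (adjusted p = 0.0621; 0.27 without replicate 3). It was called there without replicate 2 (0.56, adjusted p = 0.0383), after GC correction (0.51, adjusted p = 0.0124) and by DESeq2 (0.47, adjusted p = 0.0389). BGN, the small leucine-rich proteoglycan biglycan, had 40.6, 36.3 and 42.5 CPM in control, 186, 162 and 159 CPM at 100 µM, and 59.7, 65.1 and 87.8 CPM at 200 µM. The groups did not overlap, and BGN was 4.24-fold higher at 100 µM (log2 fold change 2.09 ± 0.15 (SE), adjusted p = 2.24e-05) and 1.78-fold higher at 200 µM (log2 fold change 0.83 ± 0.15 (SE), adjusted p = 0.00218; 0.66 without replicate 3) than in control.

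DCN and LUM, the leucine-rich proteoglycans decorin and lumican that regulate collagen fibril width, are neighbours on chromosome 12, with 28652 bases between them. DCN had 1.14, 1.1 and 1.32 CPM in control, 3.92, 3.31 and 3.31 CPM at 100 µM, and 2.54, 1.96 and 1.51 CPM at 200 µM. All treated libraries were above control. It was 2.95-fold higher at 100 µM (log2 fold change 1.56 ± 0.22 (SE), adjusted p = 7.51e-04) and 1.69-fold higher at 200 µM (log2 fold change 0.75 ± 0.22 (SE), adjusted p = 0.0258; 0.93 without replicate 3) than in control, and the call at 200 µM ended without control replicate 1 or 2 or 200 µM replicate 1 (adjusted p 0.0797 to 0.089). The DCN call at 200 µM also ended with 200 µM and control fitted alone (adjusted p = 0.0684). LUM had 6.76, 8.16 and 6.08 CPM in control, 15, 16.1 and 15.1 CPM at 100 µM, and 4.79, 4.56 and 7.47 CPM at 200 µM. Its 100 µM libraries were above all others, and in the 200 µM group replicates 1 and 2 were below control and replicate 3 was not. LUM was 2.2-fold higher at 100 µM than in control (log2 fold change 1.14 ± 0.20 (SE), adjusted p = 0.00217). Its log2 fold change at 200 µM against control was -0.32 ± 0.20 (SE, adjusted p = 0.233) with all libraries, and it was called lower without replicate 3 (-0.57, adjusted p = 0.00559).

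Cell surface proteoglycans moved in both directions. Of 8 tested, 3 rose and 2 fell at 100 µM against control, 2 rose and 1 fell at 200 µM against control, and 2 were higher and 3 lower at 200 µM than at 100 µM. The share called at 200 µM against control was 37.5%, beside 37.3% of all genes. SDC1, the main syndecan of epithelia and plasma cells, had 19.5, 20 and 20.2 CPM in control, 40.2, 44.2 and 40.1 CPM at 100 µM, and 32.5, 35.2 and 15.6 CPM at 200 µM. Libraries at 100 µM were all above control, and at 200 µM replicates 1 and 2 were above control and replicate 3 was below it. SDC1 was 2.09-fold higher at 100 µM than in control (log2 fold change 1.06 ± 0.25 (SE), adjusted p = 0.00964), and at 200 µM it had 0.48 ± 0.25 (SE, adjusted p = 0.157) with all libraries and 0.78 (adjusted p = 1.64e-05) without replicate 3.

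SDC2, a syndecan of mesenchymal cells, had 159.8, 162 and 155 CPM in control, 101, 111 and 112 CPM at 100 µM, and 50.7, 44.1 and 63.9 CPM at 200 µM. The groups did not overlap and the level was lowest at 200 µM. SDC2 was 1.47-fold lower at 100 µM (log2 fold change -0.55 ± 0.12 (SE), adjusted p = 0.0079) and 3.0-fold lower at 200 µM (log2 fold change -1.59 ± 0.13 (SE), adjusted p = 3.04e-05; -1.73 without replicate 3) than in control. SDC3, known best in the nervous system, had 92.9, 85.1 and 93.1 CPM in control, 195, 180.2 and 177 CPM at 100 µM, and 74.5, 86.1 and 69.4 CPM at 200 µM. Its 100 µM libraries were above all others and its 200 µM libraries overlapped control. SDC3 was 2.04-fold higher at 100 µM than in control (log2 fold change 1.03 ± 0.096 (SE), adjusted p = 8.24e-05) and had -0.24 ± 0.096 (SE) with no call at 200 µM (adjusted p = 0.0811; -0.15 without replicate 3), where it was called lower without replicate 2 (-0.33, adjusted p = 0.0149) and after GC correction (-0.36, adjusted p = 0.00233).

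The share of each syndecan was also set against the family's sum. Per kilobase, SDC4 made up 71.3% ± 0.279 of the 4 syndecans' summed CPM in control, 37.5% ± 1.64 at 100 µM and 76.9% ± 7.48 at 200 µM (SD, n = 3 each), with 68.3% in 200 µM replicate 3. The summed level was 186 ± 0.315 CPM per kilobase in control and 98.4 ± 2.54 at 100 µM. At 200 µM it was 165 and 168 in replicates 1 and 2 and 88.9 in replicate 3. These shares were compared as a description, with no test.

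**Figure D4:**
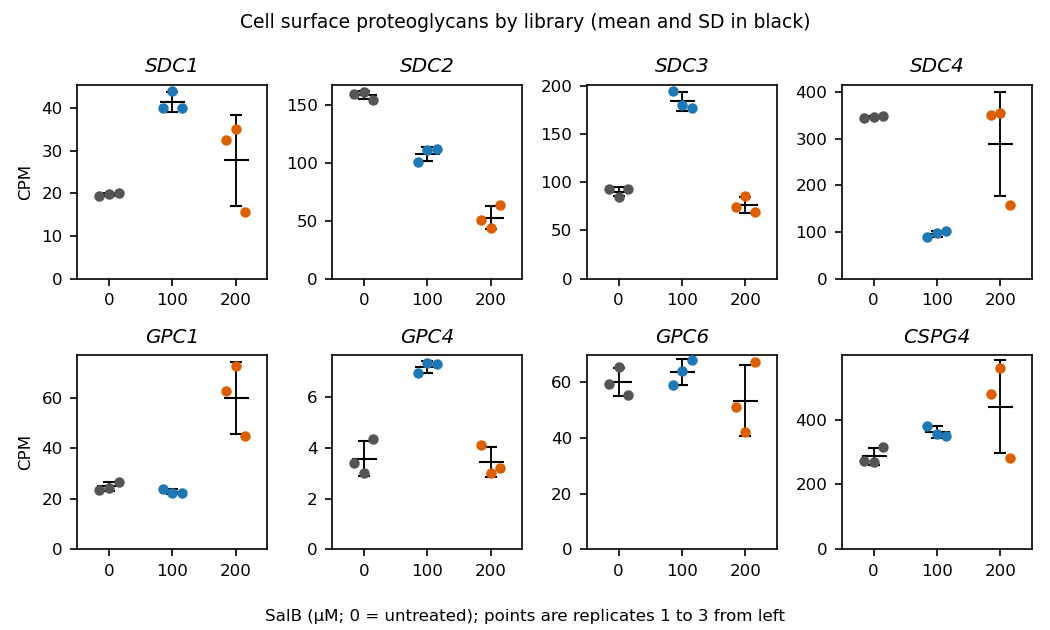
CPM of the 8 cell surface proteoglycan genes in each library at 0, 100 and 200 µM SalB, with the mean and SD of 3 libraries in black; each vertical axis starts at 0. SDC4 is low in all 3 libraries at 100 µM, SDC2 is lower at each dose than in control, and 200 µM replicate 3 lies apart from replicates 1 and 2 for SDC1, SDC4, GPC1 and CSPG4.

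Glypicans are held in the membrane by a lipid anchor. GPC1 had 23.6, 24.3 and 26.8 CPM in control, 24.1, 22.5 and 22.2 CPM at 100 µM, and 62.7, 72.8 and 44.8 CPM at 200 µM. The 200 µM libraries were above all others, and the 100 µM libraries overlapped or lay below control. GPC1 was 2.41-fold higher at 200 µM than in control (log2 fold change 1.27 ± 0.16 (SE), adjusted p = 3.66e-04; 1.46 without replicate 3). At 100 µM it had -0.12 ± 0.16 with no call (adjusted p = 0.584), and after GC correction it was called lower (-0.51, adjusted p = 2.06e-04). GPC4 had 3.4, 3.0 and 4.36 CPM in control, 6.94, 7.36 and 7.29 CPM at 100 µM, and 4.13, 3.03 and 3.22 CPM at 200 µM. It stood out at 100 µM, where it was 2.01-fold higher than in control (log2 fold change 1.01 ± 0.18 (SE), adjusted p = 0.00252), and had -0.051 ± 0.18 at 200 µM (adjusted p = 0.852; 0.011 without replicate 3).

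GPC6 was called at neither dose against control with all libraries (0.085 ± 0.16 at 100 µM and -0.17 ± 0.16 at 200 µM, adjusted p = 0.703 and 0.437). It was called lower at 200 µM without replicate 3 (-0.35, adjusted p = 0.0124) and higher at 100 µM after GC correction (0.32, adjusted p = 0.0133). CSPG4, the melanoma-associated chondroitin sulphate proteoglycan also known as NG2, averaged 286 ± 25.2 CPM in control, 362 ± 17.3 at 100 µM and 439.6 ± 143 at 200 µM (SD, n = 3). At 200 µM replicates 1 and 2 had 478 and 559 CPM, above every control library, and replicate 3 had 282 CPM, within the control range. CSPG4 was called higher at 200 µM (0.62 ± 0.21, adjusted p = 0.0433; 0.87 without replicate 3), but not without any 1 of the other 8 libraries (adjusted p 0.0645 to 0.127). The call at 200 µM also ended with 200 µM and control fitted alone (adjusted p = 0.1) and with total-count scaling (adjusted p = 0.0631). At 100 µM against control CSPG4 had 0.34 ± 0.21 (adjusted p = 0.237). It was called there when 200 µM replicate 3 was left out of the fit (0.36, adjusted p = 0.00318) or these 2 groups were fitted alone (adjusted p = 6.26e-04).

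Per kilobase of exon, the members spanned levels from near 0 to that of SPARC. SPARC was first in all groups, at 272 CPM per kilobase in control, 387 at 100 µM and 346 at 200 µM. SDC4 was second in control and at 200 µM (132 and 110.3) and 6th at 100 µM (36.9), where TNC was second at 123, against 38.9 in control. At least 1 CPM per kilobase was reached by 30 members in control, 33 at 100 µM and 30 at 200 µM, and at least 10 by 12 in control, 15 at 100 µM and 13 at 200 µM. The members together took 0.358% ± 0.00938 of counts in control, 0.574% ± 0.0232 at 100 µM and 0.465% ± 0.0375 at 200 µM (SD, n = 3 each).

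In another table of 100 features deposited by the authors, read as FPKM values, were TNC, SDC4, HSPG2 and BGN for the same 9 libraries. In the authors' deposited table TNC averaged 44.5 ± 0.62 in control, 148 ± 3.93 at 100 µM and 43.3 ± 1.68 at 200 µM, and SDC4 averaged 119.9 ± 2.17 in control, 35 ± 2.66 at 100 µM and 98.6 ± 41.7 at 200 µM (SD, n = 3 each). In the authors' deposited table HSPG2 averaged 1.27 ± 0.159 in control, 6.16 ± 0.33 at 100 µM and 2.04 ± 0.37 at 200 µM, and BGN averaged 15.3 ± 1.2 in control, 68.1 ± 5.59 at 100 µM and 26.4 ± 4.05 at 200 µM. These are the same reads on another scale, not a further measurement.

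Genes that build or modify the members' sugar chains moved in both directions, with medians near 0. Of 39 genes of glycosaminoglycan synthesis, 13 rose and 7 fell at 100 µM and 12 rose and 8 fell at 200 µM, against control, with median log2 fold changes of 0.15 and 0.02. The share called was 51.3% at each dose, beside 37.1% of all genes at 100 µM and 37.3% at 200 µM. Without replicate 3, 16 rose and 9 fell at 200 µM, where 53.8% of all genes were called. CHST15, a chondroitin sulphotransferase, and HS6ST1, a heparan sulphotransferase, rose most at 200 µM (1.23 ± 0.20 and 1.21 ± 0.14, adjusted p = 0.00145 and 2.67e-04). CSGALNACT1, which starts chondroitin chains, fell at both doses (-1.33 ± 0.13 at 100 µM and -0.61 ± 0.13 at 200 µM, adjusted p = 9.91e-05 and 0.00487). PAPSS2, which makes the sulphate donor, was lower at 200 µM (-1.29 ± 0.09, adjusted p = 1.35e-05) and had 0.23 ± 0.088 at 100 µM (adjusted p = 0.0659).

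Of 12 tested genes of elastic fibres and crosslinking, 5 rose and none fell at 100 µM, and 4 rose and 2 fell at 200 µM, against control. That is 41.7% and 50% called, beside 37.1% and 37.3% of all genes. LOXL2, a lysyl oxidase-like enzyme, averaged 40.7 ± 1.22 CPM in control, 133 ± 3.38 at 100 µM and 49.3 ± 3.74 at 200 µM (log2 fold change 1.70 ± 0.081 at 100 µM and 0.28 ± 0.079 at 200 µM, adjusted p = 2.61e-06 and 0.0226). LOXL4, an enzyme of the same family, averaged 909.8 ± 24 CPM in control, 1268 ± 35.6 at 100 µM and 253 ± 36.6 at 200 µM (0.48 ± 0.10 at 100 µM and -1.85 ± 0.10 at 200 µM, adjusted p = 0.00544 and 4.03e-06). ADAMTSL5, a microfibril-binding protein, rose at both doses (0.75 ± 0.18 at 100 µM and 2.03 ± 0.18 at 200 µM, adjusted p = 0.0113 and 5.73e-05), and THSD4, of the same family, fell at 200 µM (-0.59 ± 0.16, adjusted p = 0.0204).

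The latent TGF-beta system has LTBPs among its carriers. Of its 18 genes tested, 6 were higher and 4 lower at 100 µM, and 6 higher and 5 lower at 200 µM, against control. That is 55.6% and 61.1% called, beside 37.1% and 37.3% of all genes. Without replicate 3, 7 were higher and 6 lower at 200 µM, where 53.8% of all genes were called. TGFB2, a TGF-beta ligand, averaged 0.493 ± 0.212 CPM in control, 2.19 ± 0.198 at 100 µM and 1.69 ± 0.591 at 200 µM. It rose at both doses (2.14 ± 0.37 at 100 µM and 1.77 ± 0.37 at 200 µM, adjusted p = 0.00207 and 0.00523). Overlap with other annotated genes covers 26.6% of its exon length. ITGB8, a chain of the integrin that activates latent TGF-beta, had 176, 192 and 158 CPM in control, 27.5, 29.8 and 34 CPM at 100 µM, and 359, 232 and 486 CPM at 200 µM. It fell at 100 µM (log2 fold change -2.52 ± 0.24 (SE), adjusted p = 8.89e-05) and rose at 200 µM (log2 fold change 1.04 ± 0.23 (SE), adjusted p = 0.00668), both against control. ENG, a TGF-beta co-receptor, rose at both doses (1.36 ± 0.093 at 100 µM and 0.61 ± 0.092 at 200 µM, adjusted p = 1.68e-05 and 0.00101), and TGFBR2, a receptor kinase, fell at 200 µM (-0.78 ± 0.11, adjusted p = 5.22e-04).

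Hyaluronan, the sugar polymer that versican binds, had 1 gene higher and 5 lower of 12 tested at 100 µM, and 3 higher and 5 lower at 200 µM, against control. That is 50% and 66.7% called, beside 37.1% and 37.3% of all genes. With 200 µM replicate 3 left out of the fit, 2 were called higher and 8 lower at 100 µM, and 56.1% of all genes were called. HAS2, a hyaluronan synthase, averaged 26.2 ± 1.24 CPM in control, 11.3 ± 0.877 at 100 µM and 2.64 ± 0.089 at 200 µM (-1.21 ± 0.10 at 100 µM and -3.31 ± 0.11 at 200 µM, adjusted p = 4.16e-05 and 3.60e-07). HAPLN1, the link protein that locks versican onto hyaluronan, averaged 631 ± 36.5 CPM in control, 231 ± 16.7 at 100 µM and 132 ± 34 at 200 µM (-1.45 ± 0.16 at 100 µM and -2.26 ± 0.17 at 200 µM, adjusted p = 2.23e-04 and 1.94e-05). CD44, the main hyaluronan receptor, rose at both doses (0.60 ± 0.096 at 100 µM and 0.81 ± 0.097 at 200 µM, adjusted p = 0.00147 and 2.63e-04). HYAL3, of the hyaluronidase family, rose at 200 µM (0.59 ± 0.15, adjusted p = 0.0117). Overlap with other annotated genes, NAA80 the most, covers 14.3% of the exon length of HYAL3. Every change at 200 µM against control named here for these 4 lists was also called without 200 µM replicate 3, with adjusted p up to 0.0188.

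Matrix genes are also typical of fibroblasts, so markers of that and other cell types were read in the same libraries. The 7 fibroblast markers summed to 20.7 to 21.9 CPM in control, to 43.7 to 48.8 CPM at 100 µM and to 21.6 to 29.3 CPM at 200 µM. Of the 3 that could be tested, PDGFRA, PDGFRB and COL1A1, all 3 rose at 100 µM against control, while DPT had no count in any library and COL3A1 did not pass 0.169 CPM. At 200 µM against control 1 of the 3 was called higher and 1 lower. PDGFRA averaged 10.6 CPM in control and 5.77 at 200 µM, and PDGFRB averaged 10.1 and 18.7. The 5 endothelial markers summed to 11 to 13 CPM in control, 4.24 to 4.51 CPM at 100 µM and 10.8 to 12.4 CPM at 200 µM. Most of this sum was KDR, which averaged 10.3 CPM in control, 2.70 at 100 µM and 8.08 at 200 µM. PECAM1 averaged 0.789, 0.313 and 2.80 CPM in the same order, and CDH5, VWF and TEK did not pass 1.22 CPM in any library. Leukocyte markers summed to at most 1.45 CPM and epithelial markers to at most 1.89 CPM in any library. The part of these genes in the members' changes was not tested.

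Members were slightly richer in GC than other genes, with a median of 53.1% against 49.2%. Across the 42 members the rank correlation of GC content with the log2 fold change at 100 µM was -0.16, while over 13874 genes with known GC content it was 0.48. At 200 µM against control these were 0.12 and 0.22, and between doses 0.18 and -0.22. The ratio of 200 µM replicate 3 to replicates 1 and 2 had a rank correlation of -0.49 with GC content over 41 members. The genes of such a correlation share libraries and depth, and it is given as a description.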

How the data were processed

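Per the labels' protocols, polyadenylated RNA of 9 A375 cultures was sequenced, that of the treated groups after 48 h with SalB at 100 or 200 µM. For the untreated cultures no time is given in the labels. Whole-number read counts per gene, not normalized, were deposited by the authors. HISAT2, featureCounts, FastQC and DESeq2, and the build GRCh38 or hg38, are named per the submitters' processing notes. Their roles and versions, the annotation release and the strand setting were not given in the sources used here, so overlapping genes may have shared reads. Such overlap is stated beside a member's values where it covers 10% or more of its exons; smaller ones ran up to 7.89% (SPARC). Values of 100 features deposited by the authors were read as FPKM, a unit inferred from the values: the gene length implied by counts and values, divided by the exon length, had a median of 0.804 over 98 features (quartiles 0.647 and 0.977).

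The 2142 assembled transcripts without Ensembl identifiers (1.25% to 1.41% of counts) were left out, which was decided with the files in view. Genes passing filterByExpr were fitted in R 4.3.3 with edgeR 4.0.16 (TMM, robust quasi-likelihood, all 9 libraries, group as the only term, 6 residual degrees of freedom), and p-values were adjusted over all genes within each of 3 comparisons. The fit was tested on simulated counts. CPM were computed from the deposited counts. Log2 fold changes are first-named group over second, and SE is the absolute log2 fold change over the root of F. The exact permutation test was not used, since 3 against 3 libraries reach at best a two-sided p of 0.1. Alternatives were other scalings and filters, DESeq2 1.42.0, a GC offset, a replicate block, fits of 2 groups alone, and leaving out each library. Gene positions, lengths and GC content came from GENCODE v29, and promoters from RefSeq, which held 37 of the 44 members.

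The members and lists were chosen with earlier results of these data known, so the lists get counts and no test of their own. Values in every library are given for members called against control at either dose with an absolute log2 fold change of at least 1 and for every called syndecan. The other members are given by their changes. From each of 4 other lists at most 2 called genes with the largest positive and 2 with the largest negative change were named. Replicates within groups differed beyond sampling noise (chi-square per degree of freedom 7.22 to 148), so none was counted as a copy. All libraries carry batch 1 in the labels.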

Additional observations from a re-analysis of the deposited data

How the results depend on the processing

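No result turned its direction past the threshold under any alternative. The calls of single members stayed on the same side of the threshold in 730 of 797 refits at 100 µM against control, in 740 of 795 at 200 µM against control and in 749 of 797 between doses. The members' median log2 fold change at 100 µM against control was 0.61 with the GC offset and 0.61 with the replicate block and the GC offset together. At 200 µM against control the block with the GC offset gave 0.16, and between doses scaling by total counts gave -0.80. Fitting the 2 groups alone called 8417 genes at 100 µM against control (5181 with all 9 libraries), and 10 genes of the hyaluronan list (6 with all 9).

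Leaving out 1 library at a time, the members called at 100 µM against control were 22 to 32 higher and 5 to 6 lower, with a median over the 42 members of 0.74 to 0.91. At 200 µM against control they were 12 to 18 higher and 4 to 7 lower (median 0.23 to 0.31), and between doses 6 to 8 higher and 20 to 29 lower (median -0.79 to -0.64). All genes called numbered 3469 to 7943, 3719 to 7614 and 4813 to 7668 in these 3 comparisons. The hyaluronan list had 5 to 10 genes called at 100 µM against control; 7943 genes and 10 of that list were the counts without 200 µM replicate 3.

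Deviations of same-numbered libraries from their group means correlated at -0.163 to 0.027. Libraries of different number were not compared in this way, so pairing by replicate number was not tested. With the replicate block 22 members were called higher and 6 lower at 100 µM against control. At 200 µM against control 13 were higher and 4 lower, and between doses 7 were higher and 22 lower. The share of all genes called with the block is not given here. A change in these counts thus cannot be told from a change over all genes. The 7 calls that the block ended at 100 µM were those of FN1, ECM1, OLFML3, NTN4, POSTN, LTBP3 and FBLN5 (adjusted p 0.0554 to 0.0914). Members with few counts (POSTN, SMOC1, EFEMP1, NID2 and MATN2) are limited by depth.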
